A study of Rattus norvegicus with 2 samples.

Results

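The 10 genes described here encode chemokines that keratinocytes can make: Cxcl1, Cxcl2, Cxcl3, Cxcl6, Cxcl14, Cxcl16, Ccl2, Ccl7, Ccl20 and Cx3cl1. They were chosen by symbol from a probe annotation of the array, with earlier results of these data known. Of the 10, 9 had a named probe, among 15037 named genes in all, and Cxcl3 had none and has no value here. RNA of newborn rat keratinocytes in culture, the main cells of the epidermis, was measured on whole-transcript arrays, with 1 array for each of 2 groups. The control group carried no knockdown of Tet2 and Tet3 and received vitamin C for 12 h. The siTet2/3 group was transfected with siRNAs against Tet2 and Tet3 at 1 µM each, and 24 h later received vitamin C for 12 h as well. The medium of both cultures held antibiotics (1% penicillin-streptomycin), 10% serum and hydrocortisone at 0.4 µg/mL. The comparison asked how the chemokine genes differed when Tet2 and Tet3 were targeted in the presence of vitamin C. TET enzymes start the removal of methyl groups from DNA by oxidising them, and vitamin C supports this reaction. The labels call the control non-treated, while its title carries the letters NC and a transfection time of 24 h is listed for both groups. Whether the control received a control siRNA is not given in the sources used here.

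Chemokines are small proteins that guide leukocytes by binding receptors on their surface, and they are classed by the spacing of conserved cysteines into CXC, CC and CX3C families. In skin, keratinocytes release them after injury or on exposure to cytokines such as interleukin-1, TNF and interleukin-17, largely through the transcription factor NF-kB, whose binding raises transcription of several chemokine genes. Cxcl1, Cxcl2, Cxcl3 and Cxcl6 attract neutrophils through the receptor CXCR2, Ccl2 and Ccl7 attract monocytes through CCR2, and Ccl20 attracts lymphocytes and dendritic cells that carry CCR6.

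Promoter sequences of the members show where NF-kB could bind and how many CpG dinucleotides, the sites of DNA methylation, lie near each start. The RefSeq promoter table of rat build GRCr8 held windows from 250 bases before to 50 bases after the annotated start for 8 of the 10 genes, without Cxcl3 and Ccl2. The 5 windows below belong to Cxcl1, Cxcl2 and Cxcl16, which were lower on the siTet2/3 array, to Ccl20, which was higher, and to Cxcl6, which had no signal above background although its window holds the same NF-kB match as that of Cxcl1. Sequences run 5′ to 3′ on the gene's strand, and capitals mark matches to the NF-kB consensus on either strand. No methylation or factor binding was measured in these samples.
Cxcl1 (chr14:17479272-17479571, minus strand): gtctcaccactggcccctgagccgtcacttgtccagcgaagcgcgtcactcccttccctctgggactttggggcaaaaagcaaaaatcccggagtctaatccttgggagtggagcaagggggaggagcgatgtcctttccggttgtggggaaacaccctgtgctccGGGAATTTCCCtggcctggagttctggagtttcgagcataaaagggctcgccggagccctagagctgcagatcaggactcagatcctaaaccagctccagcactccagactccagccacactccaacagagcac
Cxcl2 (chr14:17467206-17467505, minus strand): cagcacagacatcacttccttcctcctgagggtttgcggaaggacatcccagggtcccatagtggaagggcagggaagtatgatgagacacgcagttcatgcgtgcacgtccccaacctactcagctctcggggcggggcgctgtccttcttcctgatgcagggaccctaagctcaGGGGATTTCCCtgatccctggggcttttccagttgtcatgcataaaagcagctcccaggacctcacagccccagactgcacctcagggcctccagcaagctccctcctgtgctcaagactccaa
Cxcl6 (chr14:17596368-17596667, minus strand): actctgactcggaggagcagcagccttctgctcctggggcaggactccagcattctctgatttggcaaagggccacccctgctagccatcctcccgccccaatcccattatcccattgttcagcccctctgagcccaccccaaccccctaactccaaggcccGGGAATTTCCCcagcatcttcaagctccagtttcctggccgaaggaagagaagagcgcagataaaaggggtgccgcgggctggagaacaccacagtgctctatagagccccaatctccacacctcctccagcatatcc
Cxcl16 (chr10:55669901-55670200, minus strand): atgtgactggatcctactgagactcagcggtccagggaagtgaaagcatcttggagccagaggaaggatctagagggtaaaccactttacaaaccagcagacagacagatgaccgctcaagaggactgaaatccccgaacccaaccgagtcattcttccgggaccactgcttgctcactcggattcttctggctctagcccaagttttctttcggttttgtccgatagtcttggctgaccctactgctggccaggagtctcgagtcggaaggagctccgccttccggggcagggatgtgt
Ccl20 (chr9:91836909-91837208, plus strand): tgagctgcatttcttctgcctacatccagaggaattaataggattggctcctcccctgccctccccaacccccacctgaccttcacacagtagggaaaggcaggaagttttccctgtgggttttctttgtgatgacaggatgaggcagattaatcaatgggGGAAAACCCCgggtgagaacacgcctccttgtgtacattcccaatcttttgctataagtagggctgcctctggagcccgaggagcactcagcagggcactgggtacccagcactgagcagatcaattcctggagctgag

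The NF-kB consensus was found in 5 of the 8 windows, those of Cxcl1, Cxcl2, Cxcl6, Ccl7 and Ccl20. Of these, Cxcl1, Cxcl2 and Cxcl6 lie on chromosome 14 and hold closely similar matches, so their windows are not independent examples. Cxcl6 and Ccl7 had no signal above background. The consensus was found in 7.51% of all 33469 promoter windows of that length. Its match in Cxcl1, GGGAATTTCC, began 84 bases before the start and was followed 1 base later by an overlapping match on the other strand. Cxcl6 held the same 10 bases from 88 bases before its start. Cxcl2 held GGGGATTTCC from 74 bases before the start, and Ccl20 held GGAAAACCCC, which is a match on the opposite strand, from 89 bases before the start. Of the genes with a match, Cxcl1 and Cxcl2 were lower and Ccl20 higher on the siTet2/3 array. Whether the matches bear on these directions was not tested. The AP-1 site TGANTCA, read on both strands, was found in the windows of Cxcl14 and Ccl7 and in 7.33% of all windows, and it overlapped no NF-kB match. CpG dinucleotides numbered 11 in the window of Cxcl1, 7 in those of Cxcl2 and Cxcl6, 12 in that of Cxcl16 and 3 in those of Ccl20 and Ccl7, against a median of 7 over all windows. Cxcl14 with 26 and Cx3cl1 with 20 had the CpG-rich windows of the group. A match describes letters only and no match says only that these letters are not in the window.

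**Figure D1:**
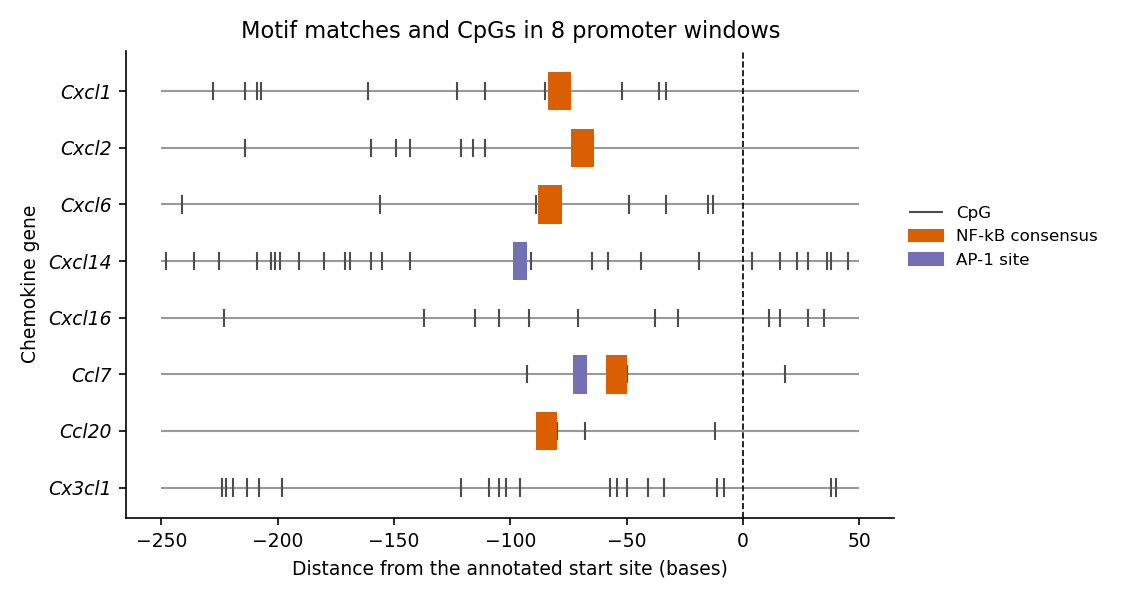
Promoter windows of 8 chemokine genes, with the distance from the annotated start site in bases on the horizontal axis; orange boxes are NF-kB consensus matches, purple boxes AP-1 sites and thin ticks CpG dinucleotides. The NF-kB matches of Cxcl1, Cxcl2, Cxcl6 and Ccl20 start between 73 and 89 bases before the start site, and that of Ccl7 starts 59 bases before it.

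Chemokine signals went in both directions, with most of the measurable genes lower on the siTet2/3 array. Values are log2 signals as deposited, and a gene counted as measurable where its higher value exceeded a background floor of 5.04 log2 units, the 95th percentile of the higher values of 1206 chemoreceptor genes (olfactory, vomeronasal, taste and trace amine receptors), which served as a gauge of background. Of the 9 members on the array, 6 passed the floor. As measured, 5 of those 6 were at least 1.5-fold lower on the siTet2/3 array, against 13.2% of all 8103 named genes above the floor. The other 1 was higher by that limit, against 8.63%. Among the 5, Cxcl14 passed the floor on the control array only, so its fold is a bound, at least 1.10-fold lower. The median difference of the 6, siTet2/3 minus control, was -0.90 log2 units, against -0.05 over all named genes above the floor. With values below the floor raised to it, the median of the 6 was -0.79 log2 units. The members were chosen with earlier results of these data known, so these shares and medians are descriptions. With 1 array per group there was no replicate error and no test, so "higher" and "lower" describe these 2 arrays. In a bulk culture, fewer cells of a type and less RNA per cell cannot be told apart.

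**Figure D2:**
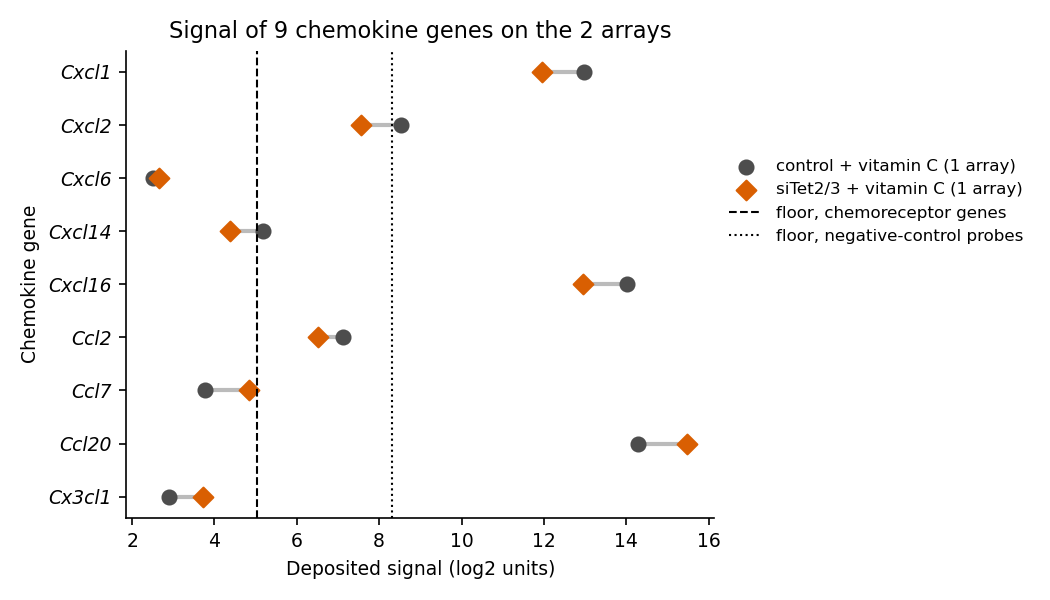
Deposited signal in log2 units on the horizontal axis for the 9 chemokine genes with a named probe, with the control array as grey circles and the siTet2/3 array as orange diamonds; each point is 1 array. Broken lines mark the floor from chemoreceptor genes (5.04) and a stricter one from negative-control probes (8.31); Cxcl1, Cxcl16 and Ccl20 lie above both on both arrays.

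Among the neutrophil attractants, Cxcl1, a main CXCR2 ligand of rodents, read 12.98 log2 units in control cells and 11.95 in siTet2/3 cells. The siTet2/3 array was the lower one by 2.05-fold, with both values far above the floor. Differences of this size were uncommon at that signal: of 369 other genes above the floor within 0.5 log2 units of the mean of Cxcl1, 7 were as low or lower in difference. Cxcl2, its close relative with the same receptor, read 8.54 and 7.56 log2 units, a 1.97-fold lower signal on the siTet2/3 array. Among 1146 genes of similar signal, 32 had a difference at least as low as that of Cxcl2. Both neutrophil attractants were therefore lower on the siTet2/3 array by nearly the same factor. Cxcl6, the neutrophil attractant also listed in RefSeq under the synonym Cxcl5, read 2.51 and 2.65 log2 units, below the floor on both arrays. The probe sequences were not used here, so cross-hybridisation among the close relatives Cxcl1, Cxcl2 and Cxcl3 was not tested.

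Cxcl16 and Cx3cl1 encode the chemokines made as membrane-bound proteins, which are shed from the surface by ADAM proteases. Cxcl16, whose receptor is CXCR6, read 14.03 log2 units in control cells and 12.96 in siTet2/3 cells. It was 2.10-fold lower on the siTet2/3 array, and 2 of 255 genes of similar signal were as low in difference. Cx3cl1 (fractalkine), the ligand of CX3CR1, read 2.89 and 3.73 log2 units, below the floor on both arrays. The members of this pair differed in whether they could be measured, so their directions were not compared. The shedding proteases Adam10 and Adam17 differed little, with 12.29 against 12.40 log2 units for Adam10 and 9.35 against 9.48 for Adam17. Dpp4, a peptidase that trims chemokines at their N terminus, stayed below the floor.

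Ccl20 was the member that went the other way. This CCR6 ligand read 14.29 log2 units in control cells and 15.49 in siTet2/3 cells, a 2.29-fold higher signal on the siTet2/3 array. Of 145 other genes above the floor within 0.5 log2 units of its mean signal, 0 had a difference as high. Ccl20 and Cxcl1 stood on opposite sides, at differences of 1.20 and -1.03 log2 units. Both are known targets of the same cytokine signals in keratinocytes, and the part of those signals here was not tested.

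The monocyte attractant Ccl2 read 7.11 log2 units in control cells and 6.51 in siTet2/3 cells, or 1.52-fold lower, just past the limit. Among 1153 genes of similar signal, 162 had a difference as low or lower, so its difference was not unusual at that signal. Centred on the median of the genes above the floor, an alternative added after the data were seen, the difference of Ccl2 was -0.55 log2 units, and after removal of a trend on signal it was -0.53, both short of 1.5-fold. Ccl7, which lies beside Ccl2 in the genome and shares its receptor, read 3.77 and 4.84 log2 units, below the floor on both arrays. Its difference as measured was 1.07 log2 units, and 57 of the 1206 chemoreceptor genes, or 4.73%, had a difference as high. At the 1.5-fold limit, 17.2% of the chemoreceptor genes were higher on the siTet2/3 array and 11.7% were lower. Cxcl14, a chemokine made constitutively by healthy epidermis, read 5.18 and 4.36 log2 units. It was below the floor on the siTet2/3 array, and its fold is therefore given as a bound: at least 1.10-fold lower. It is among the 5 lower members by its difference as measured (-0.82 log2 units), and as a gene that passed the floor on 1 array only it had to differ to some degree.

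**Figure D3:**
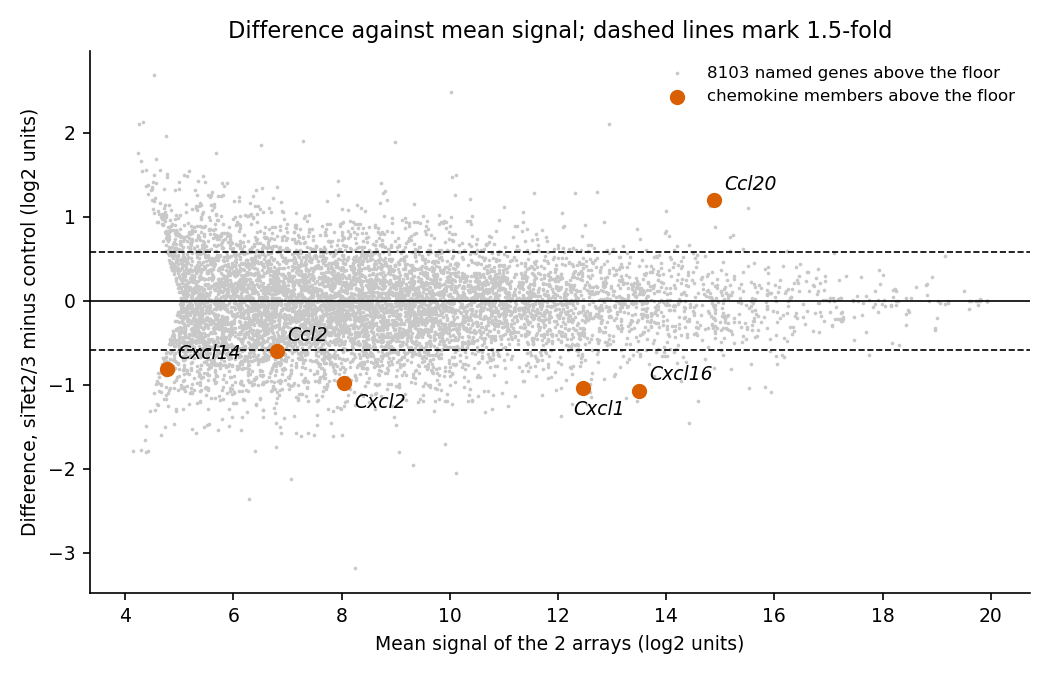
Difference between the arrays (siTet2/3 minus control, log2 units) against the mean of their signals (log2 units); grey points are the 8103 named genes above the floor and orange points the 6 chemokines among them. Ccl20 at 1.20 and Cxcl16 at -1.07 lie at the edges of the cloud at their signal, and Ccl2 at -0.60 lies inside it; genes at the left edge had to differ to pass the floor.

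The alternatives separated the firmer calls from the others. Of the 9 alternatives, 2 could not alter a member, the brightest probe because each had 1 probe and centring on all named genes because their median difference was 0.00. Cxcl1, Cxcl16 and Ccl20 stayed past the fold limit under the other 7. Both values of each lay above every floor used, so the other floors and raising values to the floor could not alter their calls. For these genes only centring on the genes above the floor, trend removal and the 2-fold limit could. Cxcl2 stayed past it under 6 of these as measured, with 2-fold as the exception, and Ccl2 and Cxcl14 under 3 each. Under the floor from negative-control probes (8.31 log2 units) 4 members remained, 3 of them lower and 1 higher as measured, where 11.0% and 6.01% of all genes above that floor were. Of the 3, Cxcl2 exceeded that floor on the control array only, and against it was at least 1.17-fold lower. At a 2-fold limit, Cxcl1 and Cxcl16 were the 2 lower members and Ccl20 the higher one, where 3.05% and 1.81% of genes above the floor passed that limit. Centring on the genes above the floor left 4 lower members and 1 higher, against 11.1% and 10.4% of genes, and removal of the trend gave the same counts against 11.1% and 10.3%. With no floor, 5 of the 9 members were lower and 3 higher, against 11.2% of all 15037 genes in each direction. With values below the floor raised to it, the difference of Cxcl14 was -0.14 log2 units.

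**Figure D4:**
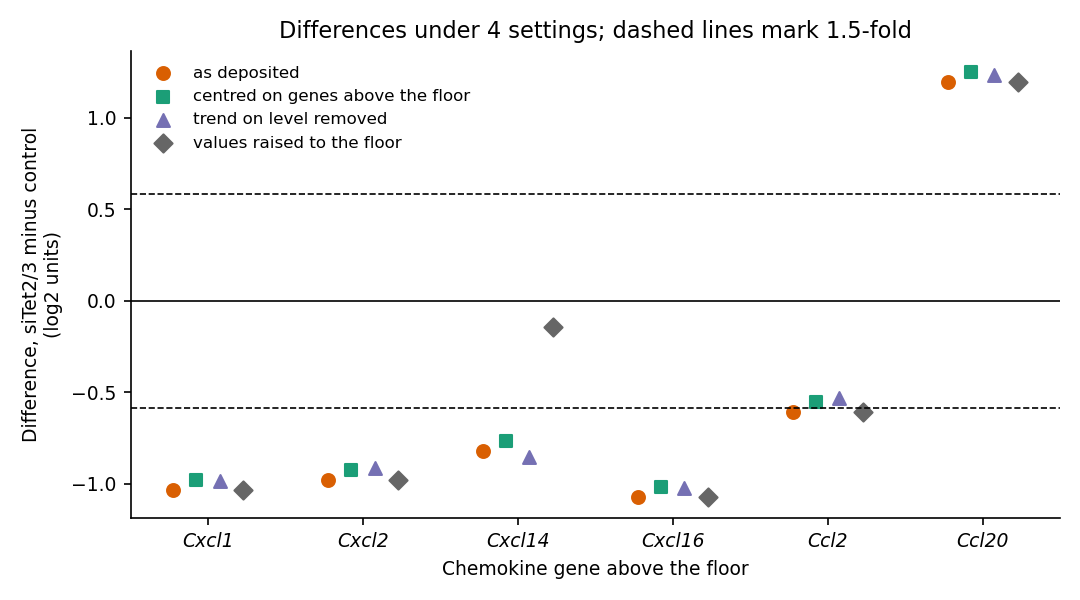
Difference (siTet2/3 minus control, log2 units) of the 6 chemokine genes above the floor, as deposited and under 3 other settings, with dashed lines at 1.5-fold. Cxcl1, Cxcl2, Cxcl16 and Ccl20 keep their side of the limit in each; Ccl2 falls inside it after centring (-0.55) and trend removal (-0.53), and Cxcl14 after raising values to the floor (-0.14).

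Most other chemokine ligands gave no measurable signal in these cells. Of 25 such genes, all on the array, 20 were below the floor on both arrays. Of the other 5, 1 passed the 1.5-fold limit downward and 2 passed it upward as measured, where 13.2% and 8.63% of all genes above the floor did. With values raised to the floor, 1 was lower and 1 higher. Ccl6, a CC chemokine of rodents, read 5.18 log2 units in control cells, just above the floor, and 6.43 in siTet2/3 cells, or 2.38-fold higher. Ccl27, a skin chemokine that attracts T cells through CCR10, read 4.24 and 5.39 log2 units and was at least 1.27-fold higher. Cxcl12, the CXCR4 ligand of stromal cells, read 5.65 and 5.02 log2 units and was at least 1.53-fold lower. The interferon-induced Cxcl10 read 7.42 and 6.97 log2 units, a difference of -0.45.

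Chemokine receptors were nearly all below the floor, which leaves the ligands' receptors outside what the arrays could compare. Of 23 receptor genes, 19 were on the array and 18 of those were below the floor. The exception was Cxcr2, the receptor of Cxcl1 and Cxcl2, at 6.87 log2 units in control cells and 6.63 in siTet2/3 cells, a difference of -0.24. Both values were below the stricter floor from negative-control probes (8.31 log2 units).

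Among genes that induce or limit chemokine expression, a minority passed the limit, and those that did were lower on the siTet2/3 array. Of 34 listed, 28 were on the array and 23 above the floor, of which 5 passed the limit downward and 0 upward, leaving 18 between. Their median difference was -0.25 log2 units. Of the 23, 13 were below 0, a share close to that of all genes above the floor, 4458 of 8103. The 5 lower and 0 higher compare with 13.2% and 8.63% of all genes above the floor. The 5 lower genes have unlike roles. Tnfrsf1a, which encodes the main TNF receptor, read 9.56 log2 units in control cells and 8.57 in siTet2/3 cells, or 1.98-fold lower. Il1a, an alarm cytokine stored in keratinocytes, read 13.08 and 12.14 log2 units, and Il1rap, the shared chain of interleukin-1 receptors, 10.51 and 9.86. These were 1.91-fold and 1.57-fold lower on the siTet2/3 array. The NF-kB subunit gene Nfkb1 was 1.70-fold lower, at 9.53 against 8.76 log2 units.

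Zfp36, the last of the 5, encodes tristetraprolin, which destabilises cytokine and chemokine mRNAs. It read 10.95 log2 units in control cells and 10.04 in siTet2/3 cells, or 1.88-fold lower, so a gene that limits chemokine mRNA was lower beside genes that induce it. The highest reading among the mRNA stability genes was that of Zfp36l1, with 11.33 and 11.79 log2 units. Other NF-kB genes fell short of the limit, with 12.68 against 12.29 log2 units for the subunit Rela and 13.87 against 13.57 for the inhibitor Nfkbia. Il1rn, which blocks the interleukin-1 receptor, differed by 0.37 log2 units and Tlr4, the endotoxin receptor, by 0.47. Relb, Rel, Nfkbiz, Tnfaip3, Il1r1 and Khsrp had no named probe.

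**Figure D5:**
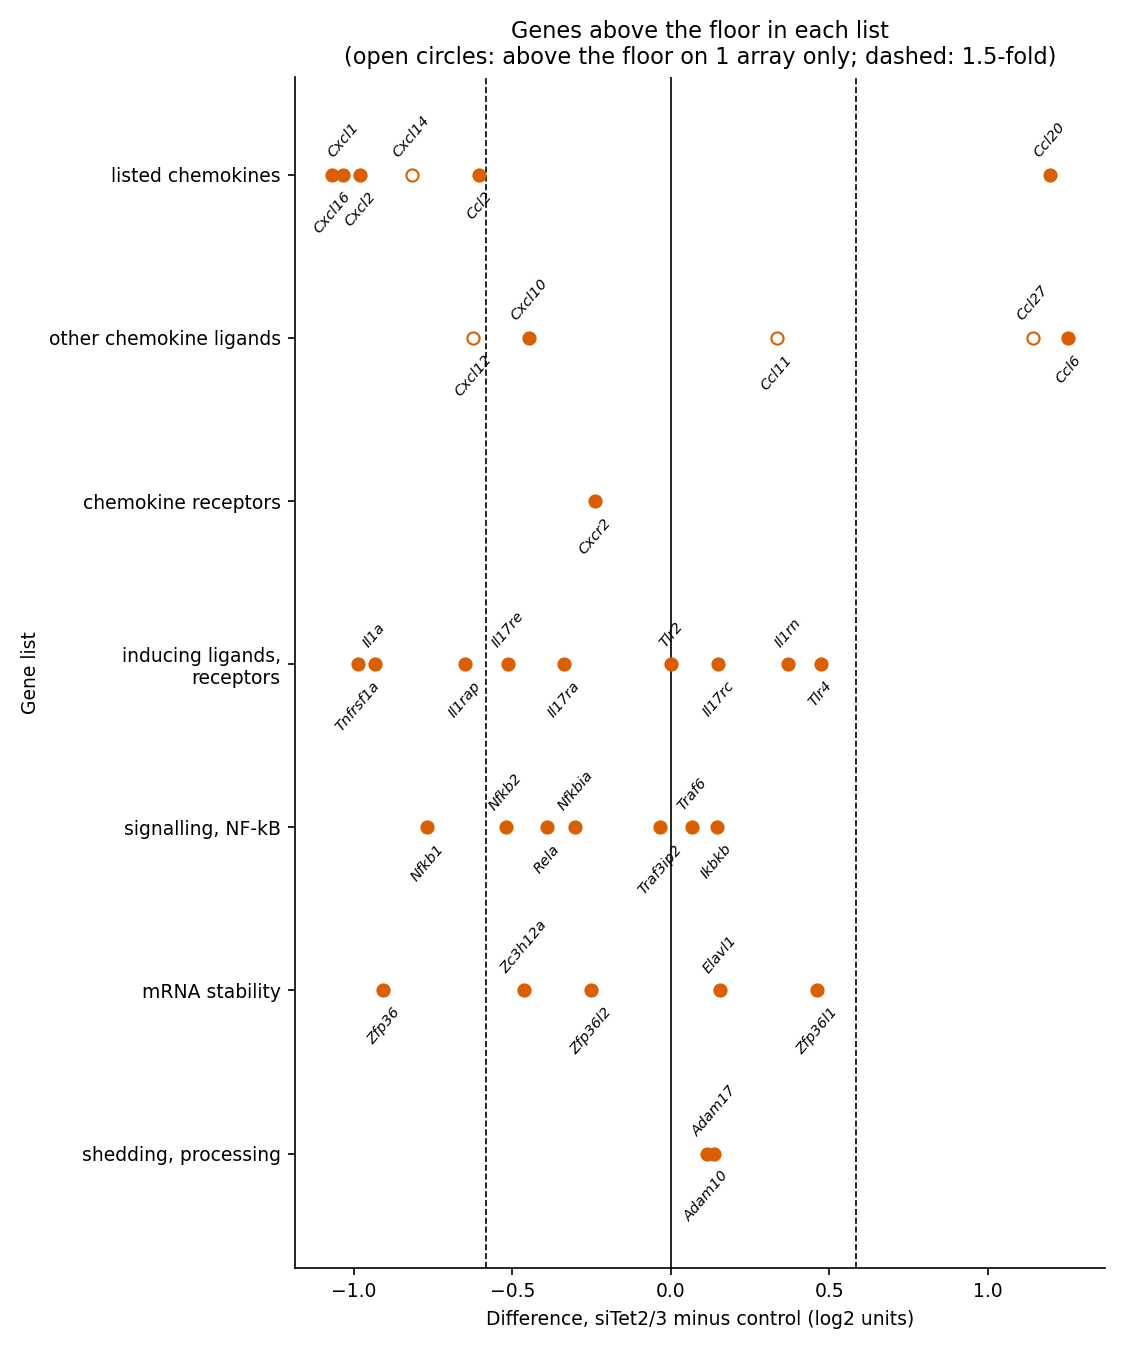
Difference (siTet2/3 minus control, log2 units) of each gene above the floor in 7 lists, 1 list per row and 1 point per gene; open circles are genes above the floor on 1 array only and dashed lines mark 1.5-fold. The listed chemokines lie outside the dashed lines, 5 at the left and Ccl20 at the right, whereas 18 of the 23 inducers and regulators in the lower 4 rows lie between them.

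The keratinocyte label was checked against marker genes. All 7 keratinocyte markers on the array were above the floor on both arrays, with Krt14 at 18.54 and 18.70 log2 units. Krt15, a keratin of basal keratinocytes, was the one of the 7 past the limit, at 8.78 log2 units in control and 11.26 in siTet2/3 cells, or 5.59-fold higher, a larger difference than that of any chemokine here, and its part in the chemokine differences was not tested. Krt5, Krt10 and Dsp had no named probe. Markers of fibroblasts (8 genes), T cells (3), endothelium (5), melanocytes (3), mast cells (4) and neutrophils (2) were below the floor on both arrays. Of 9 leukocyte and macrophage markers, 7 were below it, among them the pan-leukocyte gene Ptprc at 2.78 and 2.90 log2 units. Cd14 read 9.31 and 8.55 log2 units, in the direction of Cxcl1, and Cd68 read 5.52 and 5.24; their part in the chemokine differences was not tested. The antilog signals of those 9 markers summed to 732 in control cells and 478 in siTet2/3 cells, and without Cd14 to 99.4 and 103. The 7 markers below the floor all read somewhat higher in siTet2/3 cells, so Cd14 alone gave the lower sum. Chemoreceptor genes, the gauge of background, also leaned upward, with 17.2% higher and 11.7% lower at the 1.5-fold limit. The depletion of Tet2 and Tet3 themselves was not analysed here, since neither had a named probe.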

How the data were processed

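Total RNA of 1 control and 1 siTet2/3 culture was labelled and hybridised to 1 array each, per the labels' protocols. The log2 signals were deposited by the authors as 1 table, and the submitters' processing notes name RMA and the Transcriptome Analysis Console without versions. The medians of the columns were 4.85 and 4.90 and their sorted values differed by at most 0.151, so folds are relative to the bulk of genes. Values ended at 19.93, higher than plain RMA usually gives, and folds are those of the deposited scale. The genome build behind the table is not given in the sources used here.

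A platform annotation gave 1 symbol for 15049 probes, several for 0 and none for 8139 gene probes. Probes of the 10 genes with more than 1 were averaged. All 15037 genes were found by entrez identifier in a RefSeq table of GRCr8. Differences were taken per gene with Python 3.11.15, a trend was fitted with limma 3.58.1 (loessFit, span 0.3), and counting was tested on simulated data. These 2 arrays allow no test and no p-value. Genes named from the lists of other ligands, receptors, inducers and regulators were those past 1.5-fold, or the member with the largest difference where none passed, and the highest reading; others were added after their values were seen. The members and lists were chosen with earlier results of these data known. Alternatives were 3 other floors (none, 1 log2 unit higher, negative-control probes), raising values to the floor, centring, trend removal, 2-fold and the brightest probe.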

Additional observations from a re-analysis of the deposited data

How the results depend on the processing

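Counts near the floor and near 1.5-fold moved most. The 5 lower members were 3 with the floor from negative-control probes and 2 at 2-fold, and the count of higher members was 3 with no floor, which adds the dim Ccl7 and Cx3cl1. Centring on the genes above the floor, added after the data were seen, and trend removal each left 4 lower members, while centring on the median of all named genes, which was 0.00, and the brightest probe altered nothing. The 3 other ligands past the limit were 9 with no floor, 1 with a floor 1 log2 unit higher and 0 with the negative-control floor. Receptors went from 0 to 2 with no floor, and inducers and regulators from 5 to 0 at 2-fold. Raised to the floor, Cxcl14 differed by -0.14 log2 units. The median of the members ranged from -1.01 to -0.60 over other floors and scalings, and their mean was -0.55. The median was -1.01 for the 2 neutrophil attractants above the floor and -0.71 for the 4 other members above it. No paired analysis was possible because each group had 1 array, and leaving out a replicate was not possible for the same reason. A signal near the floor limits what can be said of Cxcl14, Ccl6, Ccl27 and Cxcl12.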

Other observations

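Genes next to the chemokines were looked up by their order in GRCr8, a choice made after the data were seen. Cxcl1 and Cxcl2 are neighbours on chromosome 14, in a cluster that also holds EGF receptor ligand genes. Of the 5 genes above the floor within 0.5 Mb of Cxcl1, 3 passed the 1.5-fold limit downward and 0 upward, where 13.2% and 8.63% of all genes above the floor were. Besides Cxcl2, the lower ones were Areg, which encodes amphiregulin, at 6.77 log2 units in control cells and 5.70 in siTet2/3 cells, and the folate enzyme gene Mthfd2l at 6.19 and 5.55. The epiregulin gene Ereg, in the same interval, read 12.00 and 11.89 log2 units, and the betacellulin gene Btc 6.01 and 6.50, so not every gene of the interval was lower.

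Cxcl16 lies on chromosome 10 among many active genes. Of 24 genes above the floor within 0.5 Mb of it, 7 passed the limit downward and 1 upward, where 13.2% and 8.63% of all genes above the floor did. The lower ones included the phosphatase gene Ctdnep1, 2.16-fold lower at 9.73 against 8.62 log2 units, and Rnasek, 2.04-fold lower at 10.78 against 9.75. Pfn1, which encodes the actin-binding protein profilin, read 17.38 and 17.14 log2 units. Around Ccl20, 3 genes were above the floor within 0.5 Mb, and Agfg1 and Mff among them differed by 0.12 and 0.09 log2 units, while the thiamine transporter gene Slc19a3 read 5.08 log2 units, just above the floor, and 5.79, or 1.63-fold higher, past the limit. Around Cxcl14, 5 genes were above the floor, of which 1 passed the limit downward and 1 upward as measured. Of all genes above the floor, 13.2% and 8.63% did. The lower one, Il9, read 5.30 log2 units in control cells and 4.47 in siTet2/3 cells. It was above the floor on the control array only, so its fold is a bound, at least 1.19-fold lower. The higher one was Tgfbi, a matrix protein gene, at 8.45 and 9.43 log2 units. Around Ccl2, the 1 gene above the floor was Ccl11, at 5.01 and 5.35 log2 units, short of the limit.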
